A study of Ambystoma mexicanum with 5 samples.

Results

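The phagocyte NADPH oxidase genes CYBB, CYBA, NCF1, NCF4 and RAC2, together with NOX4, a related oxidase of kidney and vessel cells, were followed in kidney RNA of Ambystoma mexicanum, the axolotl, a regenerating salamander. Members were the rows of the deposited count table whose gene name, after species tags and copy suffixes were cut, equalled 1 of these 6 symbols. They came to 7 gene models of 100758 in the table, since NCF1 is carried by 2 models, and all 7 passed the filter on low counts. In gentamicin-treated kidneys the 6 models of CYBB, CYBA, NCF1, NCF4 and RAC2 rose 3.65- to 9.27-fold. NOX4 stood at 3.38 ± 0.36 CPM after gentamicin and 2.95 ± 0.847 CPM in controls (CPM, counts scaled to library size; SD, n = 2 and 3), and was not called.

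The phagocyte oxidase makes superoxide to kill ingested microbes. Its core is a membrane cytochrome of CYBB (gp91phox, also NOX2), which carries electrons from NADPH to oxygen, and CYBA (p22phox), which stabilises it. In resting cells cytosolic proteins, among them NCF1 (p47phox) and NCF4 (p40phox), are kept apart from the membrane, and they join the core together with the GTPase RAC2 when the cell is activated. In mammals, loss of CYBB, CYBA, NCF1 or NCF4 causes chronic granulomatous disease. NOX4 also pairs with CYBA but works without the cytosolic subunits, releases mostly hydrogen peroxide, and was first described in mammalian kidney tubules.

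The gentamicin group had 2 animals and the control group 3 untreated animals, with 1 kidney library per animal. Gentamicin is an aminoglycoside antibiotic that damages proximal tubule cells, and the series uses it to injure the kidney for a study of regeneration. The titles of the gentamicin samples begin with Gen14, where the meaning of the number is not explained; dose, interval after treatment and age are otherwise not stated in the labels, which number the gentamicin libraries 1 and 3 and the controls 1, 2 and 3. The gentamicin libraries held 15163723 and 16404879 counts and the controls between 13674201 and 15087765, so that the upper limit for a gene with no read, taken as 3 counts, was between 0.183 and 0.219 CPM before scaling, for counting error only. Kidney markers were present: the listed proximal tubule genes summed to between 8554 and 10440 CPM in controls, and the podocyte genes to 546 and 516 CPM after gentamicin and between 487 and 537 CPM in controls.

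CYBB, the catalytic subunit, had the highest estimate among the members, with an interval that overlapped those of NCF1 and NCF4; without gentamicin 3 the estimate for NCF1 AMEX60DD054188 was higher (log2 fold change 3.35, against 3.33 for CYBB). Its gene model AMEX60DD047676 lies on the minus strand of chromosome 7p, 483244915 to 483584889, in the coordinates of the deposited table. It had 1984 and 1923 counts in gentamicin libraries 1 and 3, against 172, 199 and 95 counts in controls 1, 2 and 3. Scaled to library size these were 118 and 100 CPM after gentamicin and 14.0, 14.5 and 6.86 CPM in controls, so the groups did not overlap, and the lower gentamicin library was 6.91-fold above the highest control. The log2 fold change was 3.21 ± 0.31 (SE), a 9.27-fold increase with a 95% interval of 5.48 to 15.7 (edgeR quasi-likelihood test, adjusted p = 0.000775). This was the change of rank 284 from the top among 22006 genes tested.

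CYBA, the partner of CYBB and of NOX4 in the membrane, rose by less. The gene model AMEX60DD017134 (chromosome 1q, 93140467 to 93200790) had 85.5 and 63.0 CPM after gentamicin, against 20.7, 22.0 and 18.3 CPM in controls. Both gentamicin libraries were above every control, by at least 2.86-fold. The increase was 3.65-fold, with a 95% interval of 2.83 to 4.71 (log2 fold change 1.87 ± 0.16; edgeR adjusted p = 8.81e-05). The 95% intervals of CYBB and CYBA did not overlap, and the difference between their changes was not tested.

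NCF1, the organiser that carries the cytosolic proteins to the membrane, was split over 2 gene models that rose alike. AMEX60DD054188 (chromosome 9p, 296592957 to 296825253) had 32.4 and 18.1 CPM after gentamicin, against 3.74, 2.98 and 2.82 CPM in controls. AMEX60DD054194 (chromosome 9p, 297619036 to 297628266) had 6.96 and 5.10 CPM after gentamicin, against 0.814, 0.945 and 0.506 CPM in controls, where it rested on 7 to 13 counts a library. The increases were 7.93-fold (log2 fold change 2.99 ± 0.28; edgeR adjusted p = 0.00016) and 7.92-fold (log2 fold change 2.98 ± 0.36; edgeR adjusted p = 0.000532), and neither model had overlapping groups. The models are on the same strand and 793782 bases apart, with 5 other models between them. RefSeq lists 1 NCF1 gene in its axolotl assembly UKY_AmexF1_1, so the 2 models may be copies or pieces of 1 gene, and reads may be shared between them. With the counts of both summed, the log2 fold change was 2.99. On log2(FPKM + 1), a scale that understates changes of low genes, that of AMEX60DD054188 was 1.56 (limma adjusted p = 0.00468), and AMEX60DD054194 was under the FPKM minimum.

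NCF4, which binds a lipid of the phagosome membrane, rested on few counts in controls. AMEX60DD029313 (chromosome 3q, 337348323 to 337592822) had 177 and 139 counts after gentamicin, against 20, 25 and 11 counts in controls, or 10.5 and 7.23 CPM against 1.63, 1.82 and 0.795 CPM. Both gentamicin libraries were at least 3.98-fold above every control. The increase was 6.26-fold, with a 95% interval of 3.50 to 11.2 (log2 fold change 2.65 ± 0.36; edgeR adjusted p = 0.00118).

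RAC2, the GTPase that switches the oxidase on in blood cells, had the narrowest interval of the members. AMEX60DD029329 (chromosome 3q, 342607576 to 342823254, minus strand) had 122 and 108 CPM after gentamicin, against 30.3, 29.9 and 25.9 CPM in controls. The libraries of each group lay close together, and the groups did not overlap. The increase was 4.0-fold, with a 95% interval of 3.28 to 4.88 (log2 fold change 2.0 ± 0.12; edgeR adjusted p = 1.63e-05). RefSeq's table for UKY_AmexF1_1 had no gene matched by the symbol RAC2, the only member without one, so the name rests on the deposited annotation. RAC2 resembles the widely expressed RAC1, and reads of their coding parts may be shared.

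NOX4 did not move with the other members. AMEX60DD049619 (chromosome 7q, 855969962 to 857371843) had 61 and 60 counts after gentamicin, against 48, 36 and 32 counts in controls. The scaled values were 3.63 and 3.12 CPM after gentamicin and 3.91, 2.62 and 2.31 CPM in controls, so control 1 was the highest of all 5 libraries. The log2 fold change was 0.20 ± 0.32 with a 95% interval of -0.55 to 0.94, or 0.685- to 1.92-fold (edgeR adjusted p = 0.703). The interval excludes an increase of the size estimated for any other member, and a change within it could not be told from none with these 5 libraries.

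**Figure D1:**
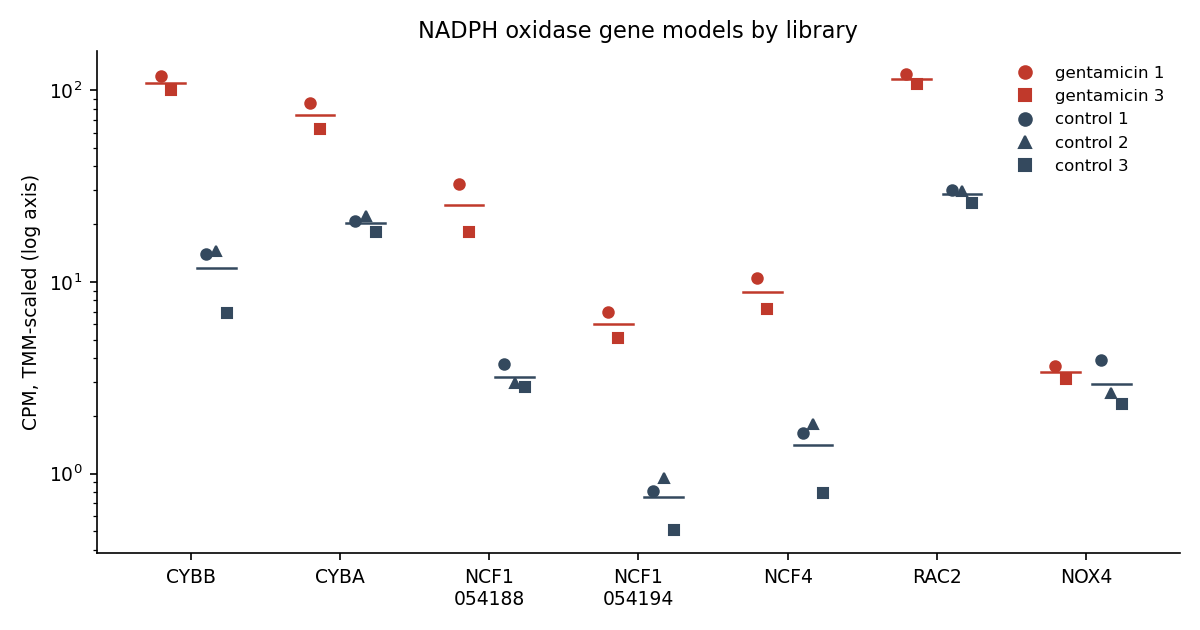
CPM of each of the 7 gene models in every library, on a log axis. Red points are gentamicin libraries, dark points controls, and bars are group means. Both gentamicin points lie above all controls for every model except NOX4, where control 1 is highest at 3.91 CPM.

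In all, 6 of 7 models rose (edgeR adjusted p under 0.05), against 13.3% of all genes tested that rose at this threshold. DESeq2, another count test, also called 6. No model was called lower in edgeR or DESeq2, and 0 of 7 were lower at an unadjusted p under 0.05. CPM did not overlap between groups, with gentamicin higher, in 6 of 7 models, against 28.6% of genes tested. The 7 models together took 0.0420% and 0.0357% of counts in gentamicin libraries 1 and 3, against 0.00674%, 0.00681% and 0.00534% in controls 1, 2 and 3.

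Within groups the members shared part of the order of the libraries. Gentamicin library 1 exceeded library 3 in 7 of 7 models, NOX4 included, and the share of all genes tested with that order was not counted. Control 3 was the lowest control in 7 of 7, also without a count over all genes. CYBB and NCF4 fell furthest from the other controls there, CYBB at 6.86 CPM and NCF4 at 0.795 CPM. The mean log2 CPM of leukocyte marker genes was also higher in gentamicin library 1 than in 3, and lowest in control 3. It was 6.13 and 5.81 in gentamicin libraries 1 and 3 and 4.03, 3.97 and 3.56 in controls 1, 2 and 3. Its highest control was control 1, while CYBB, CYBA, NCF4 and NCF1 AMEX60DD054194 were highest in control 2. The part of the leukocyte marker mean in the order of the members was not tested.

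Levels of different genes were compared per gene length, with the FPKM (fragments scaled to gene length and library size) deposited by the authors. In controls CYBA was highest at 14.8 ± 1.44 FPKM, followed by RAC2 at 7.99 ± 0.722 and CYBB at 4.71 ± 1.72 FPKM (SD, n = 3). NOX4 at 0.743 ± 0.218 FPKM and NCF1, summed over its models, at 0.534 ± 0.0883 FPKM had overlapping spreads, with NOX4 the higher in each control. If the 2 NCF1 models are pieces of 1 gene, the summed FPKM overstates its level per length. NCF4 was lowest at 0.114 ± 0.0441 FPKM. After gentamicin the order was CYBA at 54.2 ± 11.5, CYBB at 43.6 ± 4.99, RAC2 at 32.1 ± 2.75 and NCF1 at 4.25 ± 1.5 FPKM (SD, n = 2). NOX4 at 0.853 ± 0.0886 and NCF4 at 0.716 ± 0.186 FPKM came last, with overlapping spreads and NOX4 the higher in each gentamicin library. CYBA and CYBB overlapped after gentamicin, at 62.3 and 46.1 FPKM for CYBA and 47.2 and 40.1 FPKM for CYBB. CYBA was the higher in each gentamicin library.

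The RNA ratio of CYBB to CYBA, the genes of the membrane core, differed between the groups in bulk kidney. The balance of the subunits in the protein complex was not measured. CYBB amounted to 0.757 and 0.870 of the CYBA level after gentamicin, against 0.371, 0.360 and 0.206 in controls 1, 2 and 3, a ratio of FPKM that did not overlap between groups. CYBB exceeded NOX4 by 51.5- and 50.8-fold per length after gentamicin, against 5.68-, 8.76- and 4.70-fold in controls. RAC2 per unit of CYBB was lower after gentamicin, at 0.721 and 0.751, against 1.51, 1.44 and 2.63 in controls. The ratio of NCF1 to CYBB overlapped between the groups, with 0.113 and 0.0794 after gentamicin and 0.110, 0.0935 and 0.162 in controls. These ratios were given no test, and they depend on the deposited gene lengths, which range from 1344 bases for CYBA to 12171 for NCF4. The ratio of NCF1 to CYBB also uses the summed FPKM of NCF1, with the limit given for it above.

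**Figure D2:**
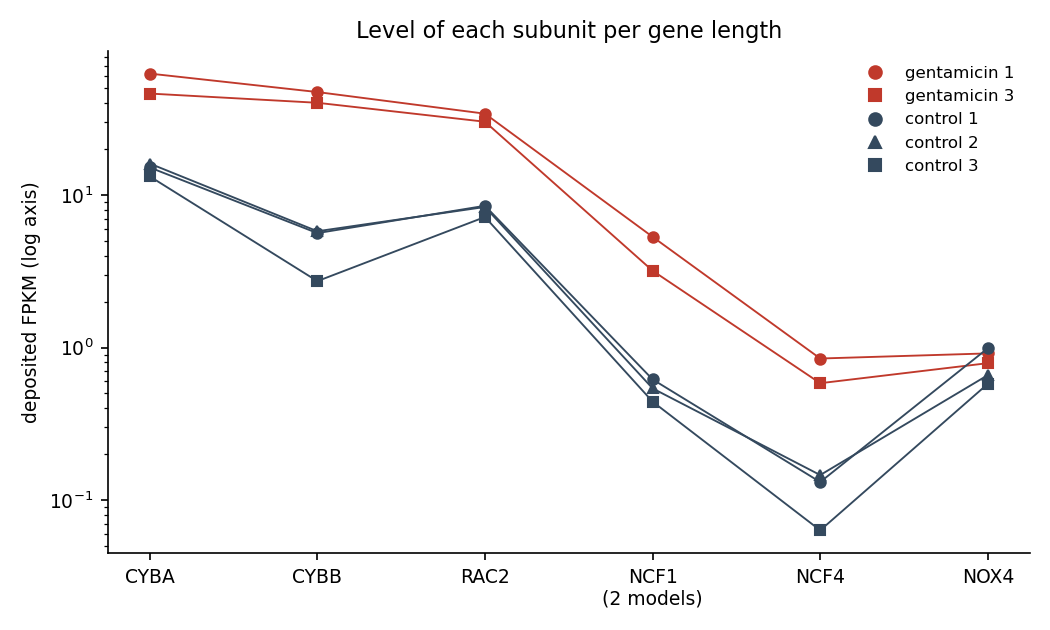
Deposited FPKM of each subunit, on a log axis, with 1 line per library (red for gentamicin, dark for control); NCF1 is the sum of its 2 models. The red lines lie above the dark ones for all subunits except NOX4, and CYBB lies below RAC2 in controls but above it after gentamicin.

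Partners of the oxidase and its relatives were taken from a list of 15 symbols, of which 17 gene models were tested. Of these 6 rose and 1 fell, against 13.3% and 13.4% of genes tested, with a median log2 fold change of 0.65 (0.01 over all genes tested). CYBC1, a chaperone for the membrane core in mammals, rose 1.99-fold to 20.9 ± 1.04 CPM after gentamicin, against 10.5 ± 1.11 CPM in controls (edgeR adjusted p = 0.00253). It was not called on the deposited FPKM (limma adjusted p = 0.0802 and 0.103 with pseudocounts of 1 and 0.1).

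The gene that rose most in that list was NOX1, the oxidase of mammalian colon epithelium, and the partners of NOX1 rose with it. NOX1 (AMEX60DD037755, chromosome 5p, 601637687 to 601733824) had 15.9 and 11.9 CPM after gentamicin, against 1.22, 1.38 and 0.722 CPM in controls. This was a 12.5-fold increase, a log2 fold change of 3.64 ± 0.30 (edgeR adjusted p = 8e-05), and 1.89 on log2(FPKM + 1). NOX1 and CYBB are related in sequence, and reads may be shared. The NOX1 activator NOXA1 rose 2.82-fold to 19.7 ± 4.14 CPM after gentamicin, against 6.96 ± 0.961 CPM in controls (edgeR adjusted p = 0.00108); the deposited names of this model, AMEX60DD050948, differ between their sources. NOXO1, the organiser of NOX1, rose in AMEX60DD020811 and AMEX60DD020810, 3.69- and 4.8-fold (edgeR adjusted p = 0.0128 and 0.0349). Neither NOXO1 call held without gentamicin 1 (adjusted p = 0.103 and 0.18) or gentamicin 3 (0.0879 and 0.238), and the second was also lost without control 2 (0.0632).

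The remaining relatives gave 1 lower gene and no other call. HVCN1, the proton channel that balances the charge moved by the oxidase, fell to 29.8 and 28.7 CPM in gentamicin libraries, against 65.9, 68.8 and 61.3 CPM in controls, 2.24-fold lower (log2 fold change -1.16 ± 0.12; edgeR adjusted p = 0.000221). DUOX1, a dual oxidase that makes hydrogen peroxide, stood at 4.98 ± 0.198 CPM after gentamicin and 5.23 ± 0.231 CPM in controls (log2 fold change -0.07, 95% interval -0.58 to 0.44; edgeR adjusted p = 0.849). Scaled to total counts its direction turned, to 0.25. The DUOX2, DUOXA1 and DUOXA2 models had edgeR adjusted p between 0.104 and 0.851. The genomic spans of some of them overlap on opposite strands. Reads may be shared where their exons overlap, which was not examined. Scaled to total counts, DUOXA1 AMEX60DDU001001167 and DUOXA2 were called higher (edgeR adjusted p = 0.029 and 0.0302), and DUOXA2 also without a filter (0.0183). The NOX4 partner POLDIP2 was at 55.2 ± 1.78 CPM after gentamicin and 65.5 ± 3.23 CPM in controls in its abundant model (edgeR adjusted p = 0.139), and the podosome scaffolds SH3PXD2A and SH3PXD2B had estimates of 0.08 and 0.26 on the log2 scale and were not called (edgeR adjusted p = 0.778 and 0.45). SH3PXD2A turned to -0.016 without gentamicin 3, and that POLDIP2 model to 0.072 scaled to total counts. Models named NOX3 and NOX5 had at most 1 count in any library.

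**Figure D3:**
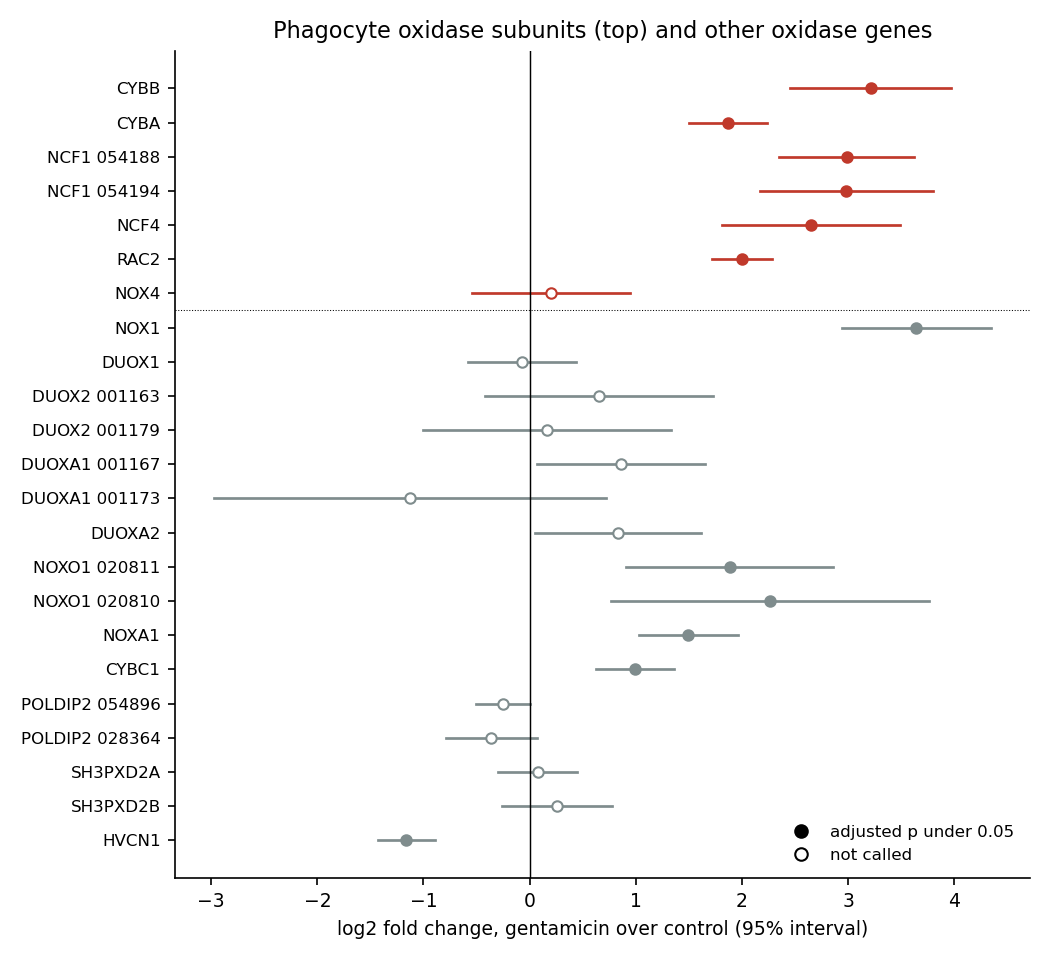
Log2 fold change of gentamicin over control with its 95% interval for the 7 members (red, top) and for tested models of other oxidases and cofactors (grey). Filled points passed an adjusted p of 0.05. NOX1 has the highest estimate at 3.64 and HVCN1 is the filled point below 0.

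Genes that mark leukocytes and macrophages rose with the oxidase subunits. In bulk kidney RNA, a change in the number of cells of a type and a change in RNA per cell cannot be told apart. Of the leukocyte markers 8 of 9 tested models rose, against 13.3% of all genes tested, with a median log2 fold change of 2.44. Their summed level was 784 and 624 CPM after gentamicin, against 146 to 185 CPM in controls. CD53 rose 6.45-fold, LCP1 5.94-fold and CORO1A 3.99-fold; WAS was not called (log2 fold change -0.02), and a second WAS model was at 0 in every library. Of the macrophage markers 10 of 11 tested models rose, with a median of 2.85 and summed levels of 1836 and 1550 CPM after gentamicin, against 194 to 248 CPM in controls. MARCO rose 24.1-fold, CD68 14.6-fold (a model described as LAMP-1 in the deposited table) and C1QA 7.95-fold, while CD163 and 1 of 2 MRC1 models were at 0 in every library. The other MRC1 model was not tested, with 7 and 4 counts after gentamicin and 7, 4 and 3 counts in controls. CTSS rose 4.587-fold in AMEX60DD014741 and was not called in AMEX60DD007394 (log2 fold change 0.226, edgeR adjusted p = 0.783).

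Granulocytes are the other cell type rich in this oxidase. Of the 13 granulocyte symbols listed 8 were matched by name, and ELANE, CXCR2, LYZ, S100A8 and S100A9 were not. The LTF and MMP8 models were not tested. Of 6 tested granulocyte marker models 2 rose, against 13.3% of all genes tested, with a median log2 fold change of 1.57. These were CXCR1 (5.55-fold) and CSF3R (6.07-fold, with 62.0 and 24.5 CPM in gentamicin libraries 1 and 3). At an unadjusted p under 0.05, and in DESeq2, 4 were higher. Without control 1, CSF3R was not called (edgeR adjusted p = 0.0534) and the count was 1, and without gentamicin 1 its log2 fold change was 1.79, against 2.60 with all libraries. MPO, the myeloperoxidase that uses peroxide from the oxidase, had 2.26 and 3.59 CPM after gentamicin, against 2.36, 41.3 and 3.97 CPM in controls 1, 2 and 3, so 1 control stood apart, and it was not called (edgeR adjusted p = 0.387). EPX AMEX60DD054293 and CEBPE had log2 fold changes of 1.25 and 1.892 and were not called (edgeR adjusted p = 0.122 and 0.111). The summed level of the list was 352 and 189 CPM after gentamicin, against 145 to 302 CPM in controls, so the groups overlapped. Most of that sum in every library was 1 model, MMP9 AMEX60DD027684, which carries the human name MMP2. It had 235.5 and 135.5 CPM after gentamicin, against 121.6, 118.3 and 284.1 CPM in controls 1, 2 and 3, and was not called. The sum without MMP9 was not compared. The part of blood cell number in the rise of the subunits was not tested.

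Set against the mean log2 CPM of the leukocyte markers in the same library, the subunits separated. CYBB was 0.75 and 0.84 above that mean after gentamicin, against -0.21, -0.11 and -0.76 relative to it in controls 1, 2 and 3 (log2 scale). RAC2 kept its distance, 0.80 and 0.94 above the mean after gentamicin and 0.90, 0.93 and 1.14 above it in controls. Relative to the mean, NCF1 AMEX60DD054188 was higher after gentamicin by 0.77 and NCF4 by 0.48, and CYBA differed by -0.27. The groups did not overlap in any of these. NCF1 AMEX60DD054188 and NCF4 were below the mean in every library, and closer to it after gentamicin. That NCF1 model was at -1.11 and -1.62 after gentamicin, against -2.07, -2.34 and -2.00 in controls 1, 2 and 3. The leukocyte list includes WAS, which was not called (log2 fold change -0.02), and its part in these distances was not tested. Against the mean of the macrophage markers CYBB overlapped between groups, at 0.10 and 0.28 after gentamicin and 0.34, 0.16 and -0.35 in controls. RAC2, CYBA, NCF4 and NCF1 AMEX60DD054194 were lower relative to the macrophage markers after gentamicin, with differences of -1.13, -1.28, -0.54 and -0.31 and no overlap, and NCF1 AMEX60DD054188 overlapped. Against the mean of the 6 granulocyte marker models the phagocyte subunits were all higher after gentamicin, RAC2 by 0.87, CYBA by 0.73, CYBB by 2.14, NCF4 by 1.47 and the NCF1 models by 1.76 and 1.69, with no overlap between groups. That list includes MPO, which was high in control 2, and its part in these differences was not tested. These differences are descriptions of 5 libraries with no test.

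**Figure D4:**
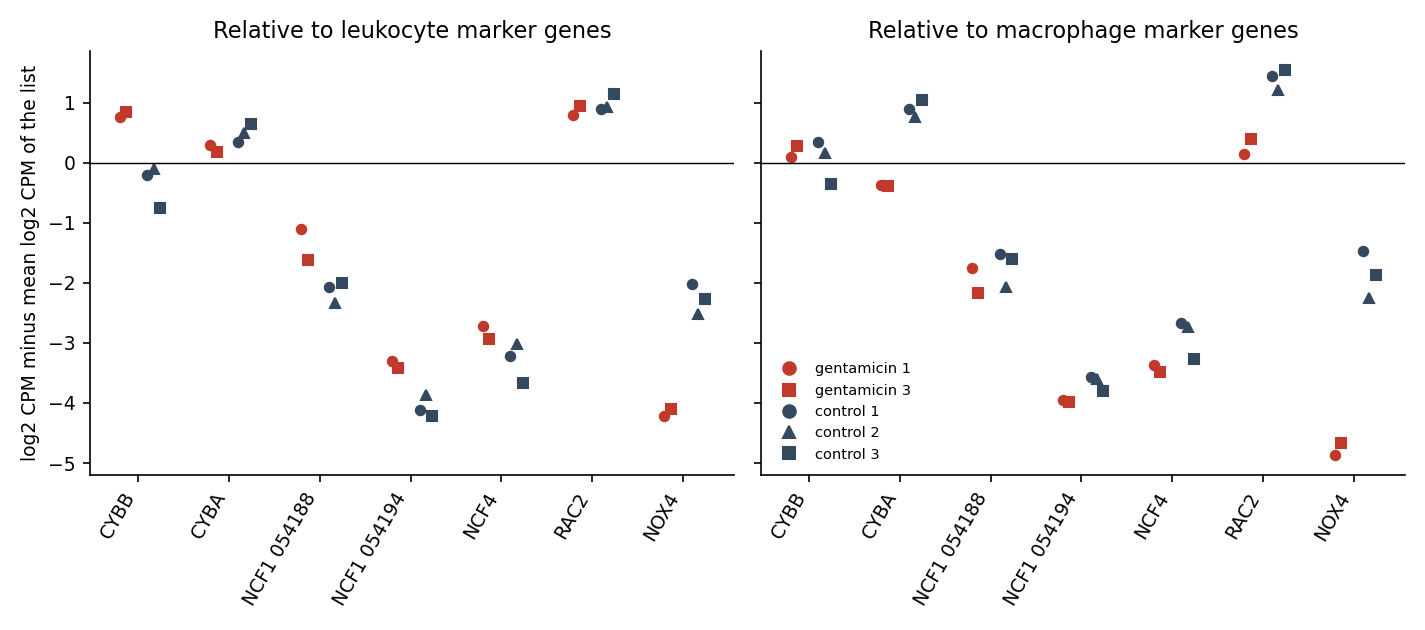
Log2 CPM of each gene model minus the mean log2 CPM of 9 leukocyte marker models (left) or 11 macrophage marker models (right), per library; red points are gentamicin, dark points control. CYBB lies higher after gentamicin on the left and overlaps the controls on the right, and NOX4 lies lower after gentamicin on both sides.

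Lists for other cells were counted in the same way, beside 13.3% of all genes tested called higher and 13.4% called lower. Of the T and NK cell markers 3 of 9 rose, CD3G, LCK and PRF1 AMEX60DD028266 (0 without gentamicin 1, and 1 without control 2 or control 3). None of these calls was firm: CD3G was lost without gentamicin 1 (edgeR adjusted p = 0.176), gentamicin 3 (0.0815) or control 2 (0.0541), LCK without gentamicin 1 (0.237), gentamicin 3 (0.0851) or control 3 (0.0724), and PRF1 without gentamicin 1 (0.123), control 1 (0.177), control 2 (0.0974) or control 3 (0.159). Of the B cell markers 3 of 5 rose, CD22, BLNK and CD79B, the last of which was not called without gentamicin 1 (edgeR adjusted p = 0.19). Proximal tubule markers fell in 19 of 20 models, with a median log2 fold change of -4.30, and summed to 667 and 713 CPM after gentamicin; CUBN, an uptake receptor that binds aminoglycosides with megalin, was 22.7-fold lower in AMEX60DD022111. Distal tubule markers had 1 higher (AQP3, 2.60-fold) and 5 lower of 10 (3 lower without gentamicin 1), and podocyte markers 2 higher of 8, both SYNPO (1 without gentamicin 3, where AMEX60DD030128 had an adjusted p of 0.0525). Among the lower distal tubule models, CLDN10 AMEX60DD048616 was 21.9-fold lower. SCNN1A AMEX60DD051246 had 0.0595 and 0 CPM after gentamicin, against 11.1, 6.25 and 14.5 CPM in controls 1, 2 and 3. The abundant SCNN1A model was not called (log2 fold change -0.548, edgeR adjusted p = 0.0576). Erythroid markers had 2 higher, EPOR and RHAG, and 1 lower, SLC4A1, of 6. The erythroid counts were not stable: the higher count was 1 without gentamicin 1 and 0 without gentamicin 3 or control 2, and the lower count was 0 without gentamicin 1, gentamicin 3, control 2 or control 3. Endothelial and mesenchymal markers, among the cells in which mammals express NOX4, had no call among 13 in edgeR or DESeq2, 1 lower at an unadjusted p under 0.05, and a median of -0.05.

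The listed receptors that trigger the oxidase rose in all 8 tested models (7 in DESeq2), against 13.3% of all genes tested. Their median log2 fold change was 2.41. Of the 13 receptor symbols listed 9 were matched by name, and FPR1, TYROBP, CLEC7A and FCGR1A were not. ITGB2, the shared chain of the leukocyte integrins, averaged 106 ± 4.32 CPM after gentamicin and 19.4 ± 2.89 CPM in controls, a 5.46-fold increase (edgeR adjusted p = 1.31e-05). TREM2, a receptor for lipids and apoptotic cells, rose 14.2-fold, the complement receptor C3AR1 6.38-fold and CSF2RB, the shared chain of cytokine receptors that prime the oxidase, 5.18-fold. ITGAM and ITGAX, the partners of ITGB2 in binding complement-coated particles, had log2 fold changes of 2.21 and 2.14. FPR2 was not tested, with 43 and 10 counts after gentamicin and 2 to 6 in controls.

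Regulators of the Rac switch rose in 13 of 22 models and kinases and lipid enzymes in 11 of 22, against 13.3% of all genes tested. The medians were 0.91 and 0.92. No model of either list was called lower in edgeR, while DESeq2 called 1 Rac switch model lower; at an unadjusted p under 0.05 the lower models numbered 1 and 0. ARHGDIB, which holds Rac proteins inactive in blood cells, averaged 391 ± 21.3 CPM after gentamicin and 149 ± 7.09 CPM in controls, 2.62-fold higher. DOCK2, a Rac exchange factor of leukocytes, rose in 4 models that may share reads, 5.99-fold in AMEX60DD030371, and ARHGAP25, which turns Rac off in phagocytes, rose 4.05-fold. RAC1, the close relative of RAC2, rose 1.39-fold in AMEX60DD025855 (edgeR adjusted p = 0.0126) and had a log2 fold change of -0.30 in AMEX60DD029334 (adjusted p = 0.076). Among the kinases, PAK1, a Rac effector, rose 4.75-fold, SYK, which signals from phagocyte receptors, 4.11-fold, BTK 6.16-fold in its abundant model and the lipid kinase PIK3CG 3.26-fold. PRKCD, which phosphorylates NCF1 in human cells, rose 2.13-fold (edgeR adjusted p = 0.00171). Without gentamicin 3, the higher models of the Rac switch list numbered 8.

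Genes that supply NADPH, the fuel of the oxidase, were called in both directions. Of 9 NADPH supply models 1 rose and 4 fell, against 13.3% and 13.4% of all genes tested, with a median log2 fold change of -0.08. IDH1, a cytosolic source of NADPH, fell to 96.0 ± 4.16 CPM after gentamicin, against 231 ± 21.2 CPM in controls (edgeR adjusted p = 0.000205). TKT was the gene that rose (1.5-fold), and its call was lost without gentamicin 1 (adjusted p = 0.225), gentamicin 3 (0.0561) or control 3 (0.0536). The lower models were IDH1 in both models, ME1 and TALDO1. The ME1 call was lost without gentamicin 1 (edgeR adjusted p = 0.145), gentamicin 3 (0.13) or control 2 (0.0583), that of IDH1 AMEX60DD045540 without gentamicin 1 (0.0941), gentamicin 3 (0.195), control 2 (0.0659) or control 3 (0.0566), and the count was 1 without gentamicin 1 or gentamicin 3 and 2 without control 2 or control 3.

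Of 21 models for the removal of superoxide and peroxide, 12 fell and 1 rose, with a median log2 fold change of -0.74. Of all genes tested 13.4% fell and 13.3% rose. CAT, or catalase, which breaks down hydrogen peroxide, fell to 310 ± 20.3 CPM after gentamicin, against 3092 ± 697 CPM in controls, in AMEX60DD005098, and was 5.32-fold lower in AMEX60DD005096. SOD1, the cytosolic superoxide dismutase, fell to 110 ± 9.19 CPM after gentamicin, against 271 ± 44.9 CPM in controls, and the mitochondrial peroxidase PRDX3 was 2.11-fold lower. GPX1, a glutathione peroxidase, was the gene that rose, to 835 ± 72.2 CPM after gentamicin, against 400 ± 103 CPM in controls (edgeR adjusted p = 0.00721); that call was lost without gentamicin 1. Of 18 models of NRF2 and its targets, which respond to oxidants, 7 fell and 2 rose (1 without gentamicin 3), with a median of -0.49. Both that rose were models of FTH1, the ferritin heavy chain, on an unplaced scaffold, and 2 other FTH1 models, AMEX60DD004586 and AMEX60DD016343, were 3.06- and 3.58-fold lower; reads may be shared among them. NQO1 was 2.51-fold lower and the NRF2 inhibitor KEAP1 3.84-fold lower in its weak model. The abundant KEAP1 model, AMEX60DD031876, had a log2 fold change of -0.425 and was not called (edgeR adjusted p = 0.0785). HMOX1, or heme oxygenase, was at 55.1 ± 2.32 CPM after gentamicin and 62.7 ± 25.3 CPM in controls (edgeR adjusted p = 0.773). The proximal tubule markers fell with these lists, and their part in it was not tested.

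**Figure D5:**
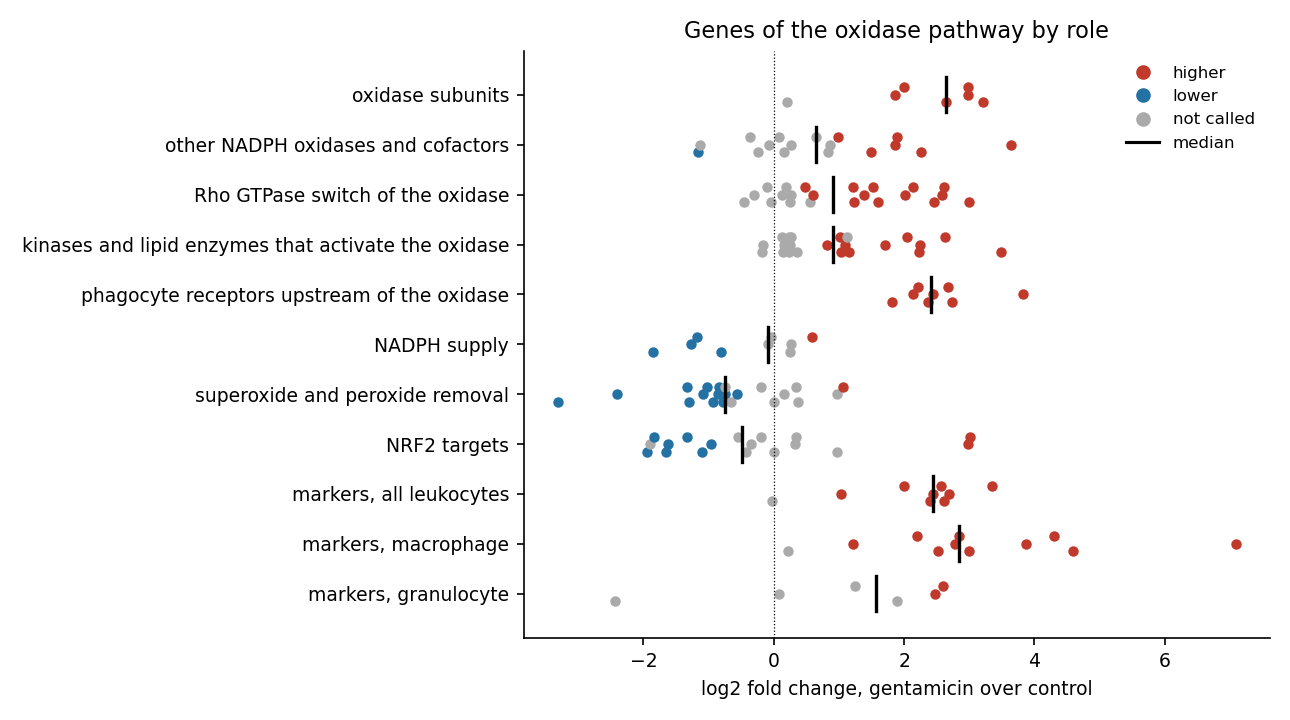
Log2 fold change of gentamicin over control for every tested model of the oxidase subunits, 7 pathway lists and 3 marker lists. Red points rose, blue points fell at an adjusted p under 0.05, grey points were not called, and black bars are medians. Receptors and leukocyte markers lie on the side of the subunits, and superoxide and peroxide removal lies mostly below 0.

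Likeness of pattern was measured as the Euclidean distance between log2 CPM over the 5 libraries, each gene centred on its own mean, among 14413 named genes with a mean log2 CPM of at least 1. The nearest genes to CYBB were TSPAN3 (distance 0.22), a model deposited as AMMEHE with the human name BMP1 (0.23) and the cytokine receptor IL31RA (0.34). CYBA was nearest to TAPBP, which loads antigen onto MHC molecules (0.22), the chemokine CCL5 (0.24) and the leukocyte phosphatase PTPN22 (0.25). NCF1 AMEX60DD054188 was nearest to CFP, the complement protein properdin (0.26), TNFAIP8L2 (0.30) and the protease CTSW (0.31). NCF4 was nearest to PTPRC, the pan-leukocyte antigen CD45 (0.26), SELPLG, a selectin ligand of leukocytes (0.27), and CTSV (0.29). RAC2 was nearest to TAPBP (0.13), the leukocyte actin regulator CORO1A (0.14) and ARHGAP45 (0.14). The nearest genes to NOX4 were CMTR2, EXOG and ZNF182 (0.08 each), none of which was called, and CMTR2 reversed to a log2 fold change of -0.017 without control 3. With 2 groups and 5 libraries such distances mostly reflect the size of the difference between groups.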

How the data were processed

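Kidney RNA libraries of 2 gentamicin-treated and 3 control axolotls were compared, grouped by their labels. HISAT2 2.0.5 and featureCounts 1.5.0-p3, after fastp and CASAVA 2.19, are listed along with DESeq2 1.20.0 in the submitters' processing notes. Genome build and strand setting: not given in the sources used here. The authors deposited 2 tables whose names are exchanged: raw read counts (100% whole numbers) stand under the name FPKM, and FPKM, deposited by the authors under the name of counts, are equal to the count per gene length and library total times 1 factor per library (0.8387 to 1.0943). Totals were 13674201 to 16404879 counts, with no rows of unassigned reads. Each library came from a different animal.

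The deposited counts were fitted over the whole table with edgeR 4.0.16 in R 4.3.3: filterByExpr (minimum count 10, minimum total 15), TMM scaling, a robust quasi-likelihood model with group as its only term, glmQLFTest (two-sided) and Benjamini-Hochberg adjustment over 22006 genes, called at an adjusted p under 0.05. The standard error is the log2 fold change divided by the root of F, and intervals are 95%. The procedure was tested on simulated data. Members, 7 pathway lists and 10 marker lists were chosen with earlier results of these data known; they are described by counts and medians, with no set test. Named were all members, all tested models of other oxidases and cofactors, up to 4 called models of each other pathway list and up to 3 of each marker list by p, and the 3 genes nearest to each member; some genes of the lists enter the counts and medians but are not reported here by name. PRKCD, ITGAM, ITGAX, FPR2, RAC1, TALDO1, GPX1, HMOX1, MPO, WAS, CD163, MRC1, NOX3 and NOX5 were added after their values were seen. So were MMP9, EPX, CEBPE, LTF, MMP8, CTSS and KEAP1 AMEX60DD031876. Alternatives were DESeq2 1.42.0, its size factors, total-count scaling, no filter, the label's number as a block, each library left out, limma 3.58.1 on log2(FPKM + 1) or log2(FPKM + 0.1) with a mean FPKM of at least 0.5, and summed models per symbol.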

Additional observations from a re-analysis of the deposited data

How the results depend on the processing

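The 6 called members kept their direction and their call under every alternative that gave a value, with the largest adjusted p at 0.0252 (NCF4) and CYBB between 2.92 and 3.53 on the log2 scale; NCF1 AMEX60DD054188 ranged from 1.56, on log2(FPKM + 1), to 3.35, without gentamicin 3; NOX4 was never called (log2 fold change 0.03 to 0.52, adjusted p 0.236 to 0.963). NCF4 and NCF1 AMEX60DD054194 were under the FPKM minimum and gave no value there. Scaled to total counts, the log2 fold changes of all genes shifted by a median of 0.32, calls over all genes became 6192 higher and 1895 lower (76.6% of calls higher, against 49.8%), NADPH supply 3 higher and 2 lower and superoxide and peroxide removal 3 higher, and DUOX1 and POLDIP2 turned to 0.25 and 0.072. Under a replicate block, NADPH supply had 0 higher and 1 lower and 1 NOXO1 call was lost. Numbers 1 and 3 occur in both groups, and deviations of same-numbered libraries from their group means correlated at -0.0363 and 0.0621. With 2 gentamicin libraries these deviations mirror each other, so the correlations cannot decide whether same-numbered libraries were paired. NADPH supply had 0 higher on both FPKM scales and 2 lower with log2(FPKM + 1); DESeq2 called 1 Rac switch model lower; without a filter superoxide and peroxide removal had 2 higher; with models summed NRF2 targets had 0 higher. The cause was not tested. With 1 library left out, all genes gave 1333 to 2770 higher and 1627 to 2963 lower, the Rac switch 8 to 13 higher, NADPH supply 0 to 1 higher and 1 to 4 lower, superoxide and peroxide removal 0 to 1 higher and NRF2 targets 1 to 2 higher. In the same range were DUOX2 AMEX60DDU001001179 (-0.30 to 0.51), SH3PXD2A (-0.016 to 0.186) and CMTR2 (-0.017 to 0.363). Where 1 gentamicin library was left, it was assumed to vary like the controls. Counts of 7 to 25 in controls limit NCF4 and the weaker NCF1 model.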
